A study of Mus musculus with 8 samples.

Results

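The chromatin around 10 genes of fibroblast growth factor (FGF) signaling was examined in mouse lens epithelium, lens fiber cells and embryonic stem (ES) cells. The genes were taken by name and encode the receptors Fgfr1, Fgfr2 and Fgfr3, the docking protein Frs2, the feedback inhibitors Spry1, Spry2, Spry4 and Dusp6 and the transcription factors Etv4 and Etv5. They are 10 of the 21631 protein-coding genes on chromosomes 1 to 19 and X in the GRCm38.p6 gene table. A chromatin loop was assigned to a gene when an anchor overlapped the gene body widened by 5 kb on each side. A topologically associating domain (TAD) was assigned when it touched this interval, and a CTCF peak when it lay in it.

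Hi-C was carried out on wild-type v6.5 ES cells, a mouse line grown without feeders in the presence of LIF, and on lens epithelium and lens fiber cells microdissected from CD-1 mice at postnatal day 0.5. There were 2 replicates per cell type, with the tissue of 30 lenses pooled in each lens replicate, and every sample was crosslinked with 2.0% formaldehyde. CTCF ChIP-seq was carried out on 1 sample of lens epithelium and 1 of lens fiber cells, each from 200 pooled CD-1 lenses, as the labels list them, and not on ES cells. The study's methods mention biological replicates of the ChIP-seq, and whether each peak list pools them is not given in the sources used here. The lens samples are dissected tissue and the ES cells a single line, and no expression was measured, so the cell types were taken as labeled. The authors merged the replicates of each cell type into 1 list of loops and 1 list of TADs, and the lens cell types are called epithelium and fibers below. The ES cell list held 8459 loops with 12 to 909 observed contacts each, the epithelium list 8005 loops with 13 to 384 contacts, and the fiber list 7682 loops with 13 to 1045 contacts. Since each cell type had 1 list, replicate error could not be measured, no test between cell types was made, and differences between lists are given as a description. Whether a loop absent from a list was absent from the cells cannot be told, since a list holds loops above the caller's thresholds at that map's depth.

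FGF ligands pair and activate receptor tyrosine kinases. The activated receptors phosphorylate Frs2, which recruits adaptors that switch on Ras and, through a kinase cascade, ERK. ERK signaling raises the transcription of Etv4 and Etv5, both ETS-family factors, and of Sprouty proteins and Dusp6, which restrain the same cascade: Sprouty proteins act on the way from receptor to ERK and Dusp6 is a phosphatase of ERK itself. In the lens, FGF signaling is needed for fiber cell differentiation, and in ES cells it drives the exit from pluripotency. CTCF is a zinc finger protein at which loops held by cohesin often end.

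There were 14 loops at the 10 genes in ES cells, 14 in epithelium and 11 in fibers. At least 1 loop was listed at 6 of the 10 genes in ES cells, where 37.3% of all protein-coding genes had one. In epithelium 8 of 10 genes had a loop, with 36.2% of all genes, and in fibers 5 of 10, with 34.5% of all genes. Of the 14 epithelium loops 6 had anchors 25 kb wide, against 1 of 11 in fibers, and with anchors of 5 or 10 kb alone 5 genes had a loop in epithelium and 5 in fibers. Fgfr1, Fgfr2, Fgfr3, Spry2 and Etv5 had loops in all 3 lists. Frs2, Spry4 and Dusp6 each had 1 loop, in epithelium, and Spry1 had 1 loop, in ES cells. Etv4 had none in any list. Longer genes are met by more anchors, so the counts were also set beside genes of like length. Of the 4 genes longer than 50 kb (Fgfr1, Fgfr2, Frs2 and Etv5), 3 had a loop in ES cells, 4 in epithelium and 3 in fibers, beside 59.8%, 64.7% and 63.3% of all genes of that length. Of the 3 genes shorter than 10 kb (Spry1, Spry2 and Dusp6), 2, 2 and 1 had a loop, beside 23.0%, 20.2% and 19.3%. Of the 3 genes between 10 and 50 kb (Fgfr3, Spry4 and Etv4), 1, 2 and 1 did, beside 37.2%, 34.2% and 31.8%.

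**Figure D1:**
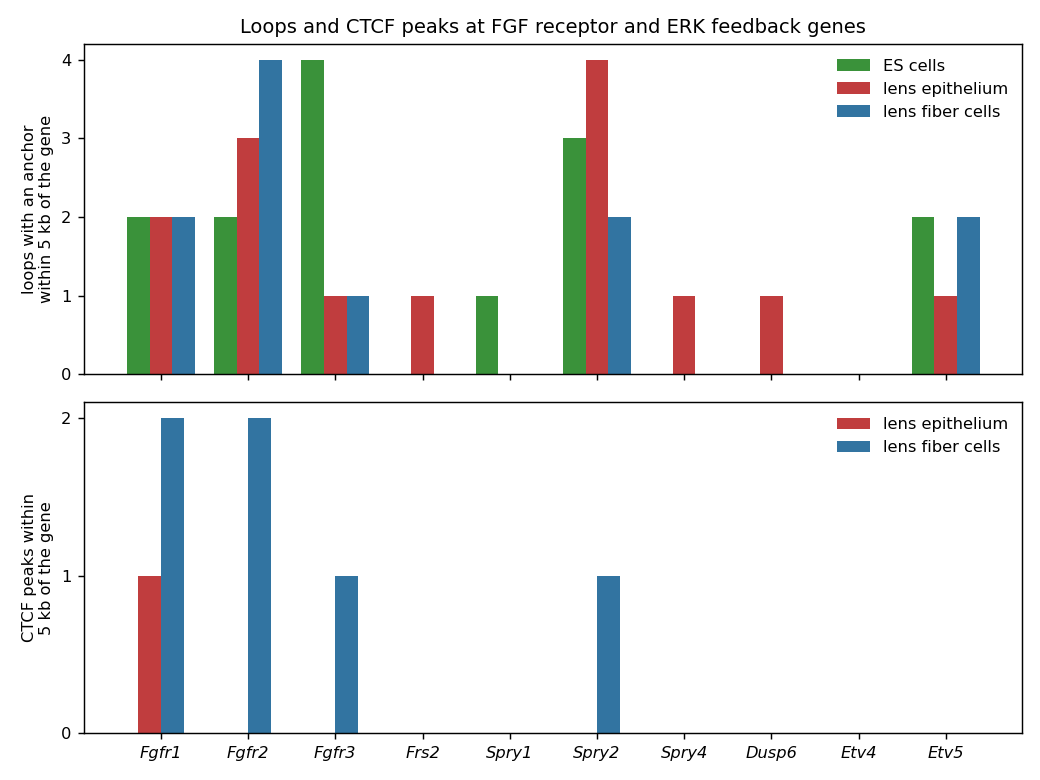
Number of loops with an anchor within 5 kb of each gene in ES cells, epithelium and fibers (top), and number of CTCF peaks within 5 kb of each gene in both lens cell types (bottom). Fgfr2 had most loops in fibers (4), Fgfr3 in ES cells (4) and Spry2 in epithelium (4), and 6 of the 7 CTCF peaks were in the fiber list.

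Loops of different lists were called shared when their anchor midpoints were at most 10 kb apart on both sides. Of the 14 loops of epithelium at these genes, 9 had a counterpart in fibers, beside 55.5% of all epithelium loops, and 4 had one in ES cells, beside 37.9%. Of the 11 loops of fibers, 8 had a counterpart in epithelium, beside 57.8% of all fiber loops, and 4 in ES cells, beside 38.1%. Of the 14 loops of ES cells, 4 had a counterpart in epithelium, beside 35.9%, and 4 in fibers, beside 34.6%. The loops common to all 3 lists numbered 3, and there was 1 at each of the receptor genes Fgfr1, Fgfr2 and Fgfr3, beside 27.5%, 29.2% and 30.4% of all loops of ES cells, epithelium and fibers. No other list held 9 of the loops of ES cells, 4 of those of epithelium and 2 of those of fibers, beside 57.0%, 35.8% and 34.4% of all loops. The counts depended on the tolerance. None of the 3 common loops stayed common to all lists when both anchors had to overlap. When both anchors had to overlap, 5 epithelium loops had a counterpart in fibers (41.5% of all) and 4 fiber loops one in epithelium (43.3%). With ES cells, 2 epithelium loops (26.1% of all) and 1 fiber loop (26.3%) were then shared. Of the ES cell loops, 2 then had a counterpart in epithelium (24.7% of all) and 1 in fibers (24.0%).

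Which loops reached the start of a gene differed between the lists. RefSeq promoter windows were at hand for 7 of the 10 genes (Fgfr2, Fgfr3, Frs2, Spry1, Spry2, Dusp6 and Etv5), with the strand and the annotated start. In ES cells an anchor covered an annotated start at 2 of these 7 genes, Fgfr3 and Spry1, where 12.5% of all protein-coding genes with a window had one. In epithelium there were 4 genes, Fgfr2, Spry2, Dusp6 and Etv5, beside 14.2% of all genes, and in fibers 3 genes, Fgfr2, Spry2 and Etv5, beside 13.2%. None of the 7 ES cell loops at Fgfr2, Spry2 and Etv5 had an anchor over the start. At Dusp6 and Etv5 the epithelium anchors were 25 kb wide, and with anchors of 5 or 10 kb alone 2 genes remained in epithelium, Fgfr2 and Spry2. With anchors widened by 5 kb, the counts were 5 genes in ES cells, 5 in epithelium and 4 in fibers, so that ES cells no longer had the fewest. The comparison of gene starts was added after the loops had been seen.

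Promoter windows of 4 of the 6 genes with a start in an anchor are printed from RefSeq (GRCm38.p6), from 250 bases before to 50 bases after the start, 5′ to 3′ on the strand of the gene. They are those of Fgfr2, Spry2 and Etv5, whose starts lay in an anchor in both lens lists, and of Fgfr3, whose starts lay in the anchor of 3 ES cell loops. Those of Dusp6 and Spry1, with 1 such loop each, are not shown. Capitals mark CpG dinucleotides, the main sites of DNA methylation in mammals. For Etv5 and Fgfr3, which have 2 windows each, the outermost is shown.
Fgfr2, chr7:130266759-130267058, minus strand: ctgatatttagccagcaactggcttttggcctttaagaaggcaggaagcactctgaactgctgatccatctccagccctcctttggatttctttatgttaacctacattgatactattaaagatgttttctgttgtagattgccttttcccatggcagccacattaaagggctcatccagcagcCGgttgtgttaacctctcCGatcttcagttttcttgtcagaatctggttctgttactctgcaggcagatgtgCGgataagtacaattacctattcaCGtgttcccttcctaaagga
Spry2, chr14:105896770-105897069, minus strand: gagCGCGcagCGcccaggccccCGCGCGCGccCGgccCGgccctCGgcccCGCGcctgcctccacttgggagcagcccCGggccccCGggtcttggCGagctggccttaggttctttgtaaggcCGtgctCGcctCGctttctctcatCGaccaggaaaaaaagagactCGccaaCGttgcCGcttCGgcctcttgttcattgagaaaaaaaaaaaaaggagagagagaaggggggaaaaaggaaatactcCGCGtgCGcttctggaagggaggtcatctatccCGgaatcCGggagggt
Etv5, chr16:22439521-22439820, minus strand: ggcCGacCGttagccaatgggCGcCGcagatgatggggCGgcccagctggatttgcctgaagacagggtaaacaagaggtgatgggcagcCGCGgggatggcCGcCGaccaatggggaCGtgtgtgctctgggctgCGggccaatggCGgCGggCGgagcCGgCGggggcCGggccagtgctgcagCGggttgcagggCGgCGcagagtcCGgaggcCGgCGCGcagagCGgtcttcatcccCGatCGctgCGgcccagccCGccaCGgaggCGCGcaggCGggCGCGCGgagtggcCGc
Fgfr3, chr5:33721474-33721773, plus strand: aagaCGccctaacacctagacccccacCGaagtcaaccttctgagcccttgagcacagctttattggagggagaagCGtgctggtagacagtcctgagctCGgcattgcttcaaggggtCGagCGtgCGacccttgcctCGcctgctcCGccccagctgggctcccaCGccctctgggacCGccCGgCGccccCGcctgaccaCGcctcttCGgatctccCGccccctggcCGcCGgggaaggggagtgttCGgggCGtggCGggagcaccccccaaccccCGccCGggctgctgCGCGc

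The Fgfr2 window held 4 CpG and was 43.7% G or C. The Spry2, Etv5 and Fgfr3 windows held 28, 37 and 26 CpG and were 62.7%, 74.0% and 69.7% G or C. Over all 32851 promoter windows the medians were 7 CpG and 52.7%, so that the Fgfr2 window lay below them and the others above. The CTCF core motif, searched on both strands, was found in none of the 9 windows of the 7 genes and in 3.43% of all windows. The ETS core CCGGAA, likewise on both strands, was found in 2 of the 9 windows and in 14.9% of all windows. At Spry2 a match began 33 bases after the start, and at Frs2 matches began 62 and 96 bases before it. The cAMP response element TGACGTCA was in none of the 9 and in 1.79% of all windows. No match overlapped another motif, and a match describes letters, not a bound site.

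Fgfr1 (chromosome 8, 25518759 to 25575718), the receptor used by many FGF ligands, had 2 loops in every list. Its longest loop was common to all and joined the high-coordinate end of the gene, at 25575001 to 25580000, to a site near 25275000, and its nearest protein-coding gene was Tacc1, a centrosomal coiled-coil protein, 13.6 kb away in ES cells and 18.6 kb in the lens lists. It measured 305 kb in ES cells, with 80 observed contacts, or 4.11 times the number expected from the surroundings of the loop (95% interval 3.26 to 5.12). In epithelium it measured 300 kb and held 30 contacts, 4.21 times the expected number (2.84 to 6.01), and in fibers 300 kb and 35 contacts, 4.14 times (2.88 to 5.76). These intervals are exact Poisson intervals of the observed count over the expected count taken as fixed. They cover counting error only, and here they overlapped throughout. A ratio is comparable within the map it was called in, so overlap between lists does not show equal strength. The ratios lay above 56.66%, 22.7% and 39.15% of those of loops with the same anchor width in ES cells, epithelium and fibers. The second loop differed between ES and lens cells. Both lens lists joined the same distal site to the low-coordinate end of Fgfr1 over 240 kb, with ratios of 4.35 (2.94 to 6.22) in epithelium and 3.69 (2.53 to 5.21) in fibers. ES cells instead had a loop of 220 kb from the high-coordinate end to 25350001 to 25360000, at a ratio of 1.98 (1.61 to 2.40), above 2.33% of the ES cell loops with anchors of the same width.

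The TAD at Fgfr1 was similar in the 3 lists, at 330 kb in ES cells, 310 kb in epithelium and 305 kb in fibers. It held the whole gene in ES cells and epithelium and 98.7% of it in fibers, where its border lay within the gene. A CTCF peak had its summit 407 bp (epithelium) and 410 bp (fibers) inside the high-coordinate end in both lens lists, within the anchor of the common loop. Its fold enrichment over background, as MACS2 gave it, was 5.97 in epithelium and 7.54 in fibers, above 54.4% and 66.9% of the peaks of the respective list. The distal anchor held 1 peak in epithelium (fold 4.89) and 2 in fibers (6.68 and 6.33). Fgfr1 was thus the gene at which the 300 kb loop had a CTCF peak at both anchors in each lens cell type.

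**Figure D2:**
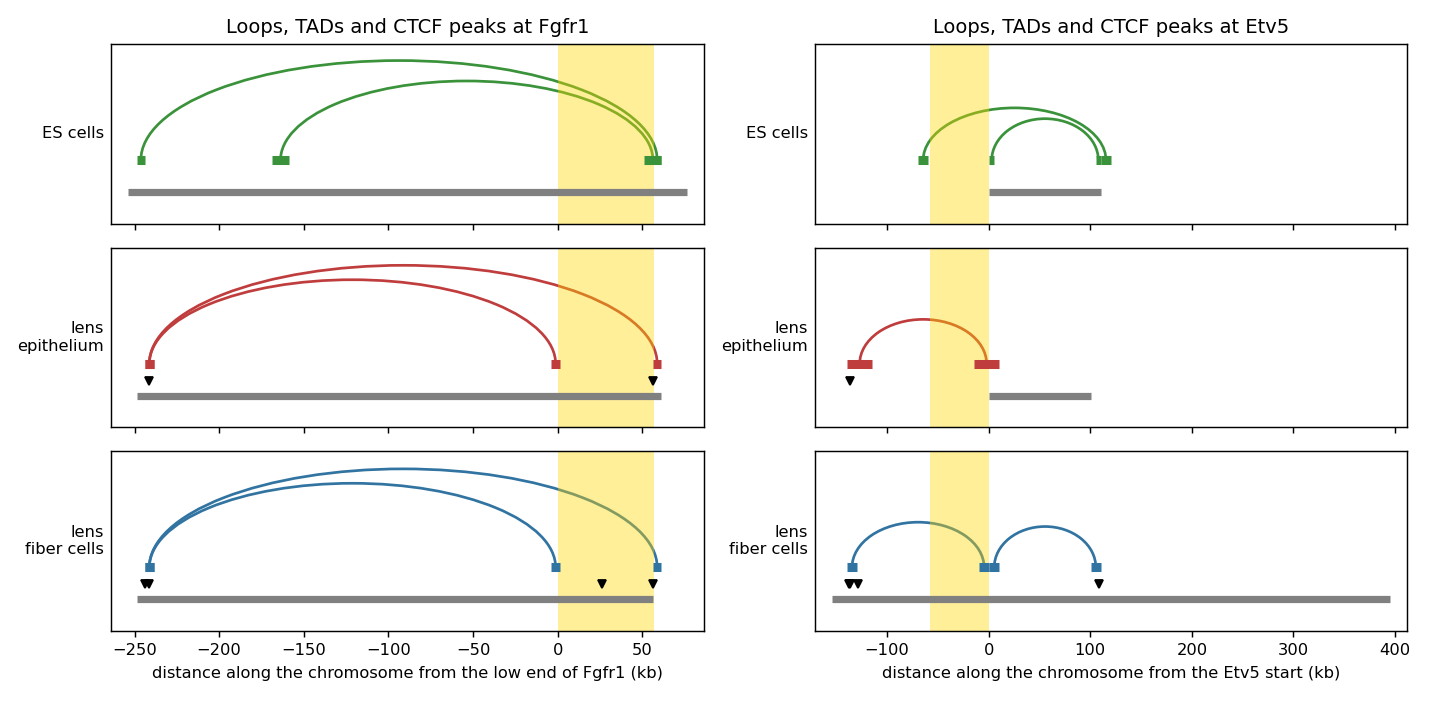
Loops (arcs), TADs (grey bars) and CTCF peaks (black triangles, lens lists, those at the gene or at an anchor of any of its loops) at Fgfr1 (left) and Etv5 (right) in ES cells, epithelium and fibers, plotted as distance in kb along the chromosome, with the gene body in yellow. Thick ends of an arc are its anchors, and arc height has no unit. The 2 lens cell types share a loop to the low-coordinate end of Fgfr1 and a loop from the Etv5 start to the left, and ES cells have neither.

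Fgfr2 (chromosome 7, 130162451 to 130266808, minus strand), whose product receives FGF signals in many epithelia, had 2 loops in ES cells, 3 in epithelium and 4 in fibers. Of all protein-coding genes, 1.78% had at least 4 fiber loops, and 6.21% of those longer than 50 kb did. In the other lists, 15.3% of all genes had at least 2 ES cell loops and 5.18% at least 3 epithelium loops. Among genes longer than 50 kb these shares were 30.9% and 15.6%. The longest loop was common to the lists, and led from the upstream side of the gene to a site whose nearest gene was Wdr11, a WD-repeat protein. It measured 620 kb in ES cells and epithelium, with ratios of observed to expected contacts of 6.30 (4.41 to 8.72) and 6.76 (4.63 to 9.55), and 610 kb in fibers, with 5.32 (3.53 to 7.68). The 3 intervals overlapped, while the proximal anchor was not the same. In ES cells and epithelium the anchor began 3193 bp upstream of the annotated start and did not cover it. In fibers the anchor, at 130265001 to 130270000, covered the start.

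Within the Fgfr2 gene, a loop joined the start of the gene to its other end in both lens lists. It measured 90 kb in epithelium, with 62 contacts and a ratio of 3.04 (2.33 to 3.90), and 100 kb in fibers, with 68 contacts and a ratio of 2.50 (1.94 to 3.17). No ES cell loop had both anchor midpoints within 10 kb of those of this loop. Both lens lists also held a TAD of 100 kb, from 130165001 to 130265000, which covered 95.8% of the gene. In fibers its borders lay in the anchors of the intragenic loop. In epithelium the low-coordinate anchor of that loop began at 130170001, inside the TAD. The ES cell TAD instead spanned 760 kb, from 129635001 to 130395000, and held the gene whole. A further loop of 200 kb joined the Fgfr2 start to the body of Ate1, an arginyltransferase gene, in both lens lists. Its ratio was 2.20 (1.83 to 2.62) in epithelium, with 25 kb anchors, and 2.93 (2.15 to 3.89) in fibers, with 10 kb anchors. Ratios at unlike anchor widths are not set against each other. Of the loops at Fgfr2 in no other list, the ES cell loop spanned 320 kb, to a site 207.5 kb from the gene, at a ratio of 4.76 (3.11 to 6.97). The fiber loop spanned 500 kb, from the far end of the gene to the Wdr11 side, with 185 contacts and a ratio of 2.41 (2.08 to 2.78).

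No CTCF peak of epithelium lay within 5 kb of Fgfr2, and 2 peaks of fibers did. One had its summit 455 bp upstream of the start, just outside the printed promoter window, whose edge lay 36 bp from the peak, and a fold enrichment of 7.01. The other lay 1628 bp inside the gene with a fold enrichment of 3.28, above no more than 0.5% of the fiber peaks. Both lay in the anchors of the 3 fiber loops that met the start. Another fiber peak (fold 7.85) lay in the upstream anchor used in ES cells and epithelium. At the Wdr11 side, a peak was listed in both lens cell types, with a fold enrichment of 8.33 in epithelium and 12.6 in fibers, above 88.7% and 97.3% of the respective list. This peak lay in the distal anchor of the 620 kb loop in epithelium and of the 500 kb loop in fibers, and just outside that of the 610 kb fiber loop. The common loop thus had a peak within its distal anchor alone in epithelium and within its proximal anchor alone in fibers. With anchors widened by 5 kb, the fiber loop had a peak at both.

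**Figure D3:**
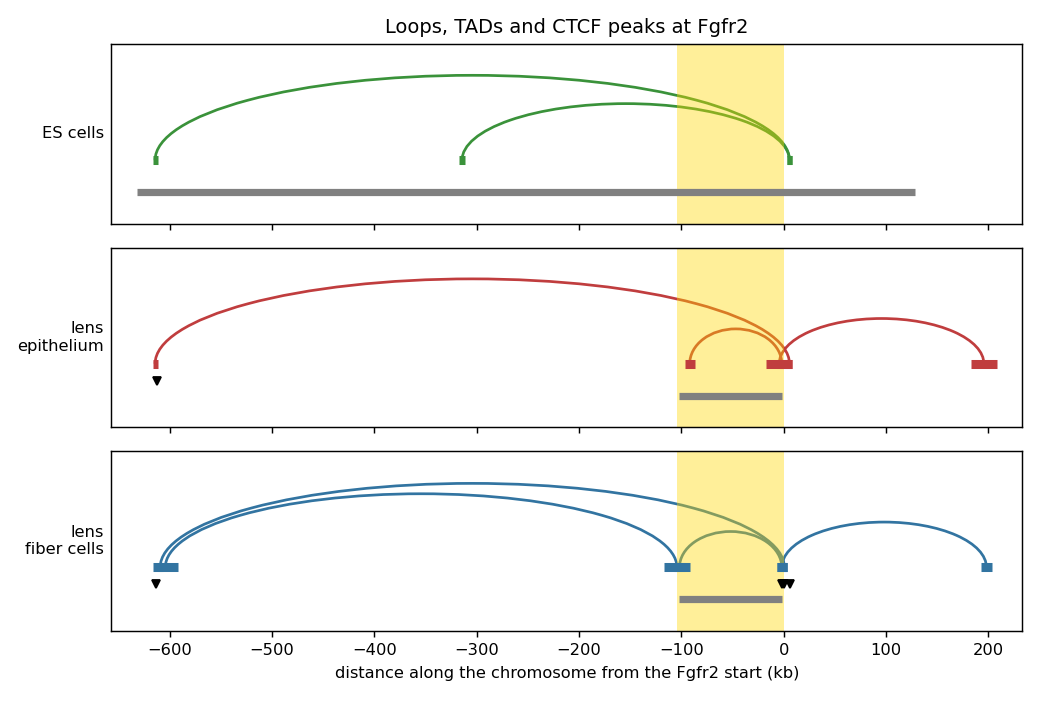
Loops (arcs with thick anchors), TADs (grey bars) and CTCF peaks (black triangles, lens lists, those at the gene or at an anchor of any of its loops) around Fgfr2 in the 3 cell types, by distance in kb along the chromosome from the annotated start, with the gene, which runs to the left, in yellow. Both lens cell types have a loop from one end of the gene to the other and a TAD of 100 kb over it, where ES cells have a TAD of 760 kb. Arc height has no unit.

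Fgfr3 (chromosome 5, 33721724 to 33737068, plus strand), a receptor best known as a brake on bone growth, had 4 loops in ES cells and 1 in each lens list. At least 4 ES cell loops were found at 2.84% of all protein-coding genes and at 1.71% of those between 10 and 50 kb. At least 1 loop was found at 36.2% of all genes in epithelium and 34.5% in fibers. The loop common to the lists was short, at 45 kb in ES cells and epithelium and 40 kb in fibers, and led to a site whose nearest gene was Tacc3, 7.8 to 12.8 kb away. Its ratios were 2.16 (1.67 to 2.75) in ES cells, 3.25 (2.24 to 4.57) in epithelium and 2.63 (1.93 to 3.51) in fibers. They were low in each list, above 1.64%, 3.27% and 0.82% of those of loops with anchors of the same width. The other 3 loops were listed in ES cells and in neither lens list, and their shared anchor, at 33720001 to 33730000, covered both annotated starts of Fgfr3. They reached into Uvssa, a gene of transcription-coupled DNA repair, over 300 kb, into Nat8l, which encodes the N-acetylaspartate synthase, over 270 kb, and into Hmx1, a homeobox gene of eye and craniofacial development, over 1670 kb. The Hmx1 loop rested on 18 contacts, the fewest of all loops at the 10 genes, and its ratio of 8.74 (5.18 to 13.8) was the highest. The TAD at Fgfr3 measured 85 kb in ES cells, 320 kb in epithelium and 90 kb in fibers, and held the whole gene in each. The single CTCF peak, in the fiber list, lay 1020 bp beyond the gene with a fold enrichment of 5.90, and no fiber loop had an anchor there.

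The receptor genes lie near the Tacc genes, their neighbors in each of these genomic segments. The gap from gene to gene was 262.3 kb from Fgfr1 to Tacc1, 286.2 kb from Fgfr2 to Tacc2 and 49.5 kb from Fgfr3 to Tacc3. No loop of any list had anchors within 5 kb of both genes of a pair.

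Frs2 (chromosome 10, 117070127 to 117148474, minus strand) had a loop of 140 kb in epithelium, with an anchor 127 bp outside the gene, 41 contacts and a ratio of 3.15 (2.26 to 4.27). Its distal anchor held a CTCF peak in both lens lists (fold 4.89 in epithelium and 9.13 in fibers), and its nearest gene was Yeats4, a reader of acetylated histones. The same loop was in the fiber list at 150 kb, with 22 contacts and a ratio of 5.11, but its anchor lay 5127 bp from the gene and missed the limit by 127 bp. A TAD of 160 kb held Frs2 in ES cells, and no TAD touched it in either lens list.

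Among the Sprouty genes, Spry2 (chromosome 14, 105891947 to 105896819, minus strand) had 3 loops in ES cells, 4 in epithelium and 2 in fibers. At least 4 epithelium loops were found at 1.88% of all protein-coding genes and at 0.349% of those shorter than 10 kb. In the other lists, 6.36% of all genes had at least 3 ES cell loops and 13.3% at least 2 fiber loops. All 3 ES cell loops started 3182 bp upstream of the gene and ran downstream across it, over 400, 510 and 725 kb, with ratios of 1.79 (1.52 to 2.10), 2.87 (2.08 to 3.87) and 3.03 (2.39 to 3.78). The longest reached Rbm26, an RNA-binding protein gene, and the others ended between Ndfip2, an adaptor of ubiquitin ligases, and Spry2. The ratio of the 400 kb loop was above 0.63% of those of ES cell loops with anchors of the same width. Epithelium had the 510 kb loop as one of 525 kb, with 109 contacts and a ratio of 2.33 (1.91 to 2.81). Its anchors were 25 kb wide in epithelium and 10 kb in ES cells. From the same upstream side a loop of 575 kb ran the other way, with a ratio of 3.45 (2.51 to 4.63), to a site 339.1 kb from the nearest gene, Trim52.

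The start of Spry2 lay in an anchor of 4 lens loops. In epithelium these measured 390 kb (ratio 3.11, 2.19 to 4.28) and 160 kb (3.58, 2.56 to 4.88), and in fibers 170 kb (2.79, 2.03 to 3.75) and 80 kb (2.37, 1.72 to 3.19). The loops of 160 and 170 kb were the counterparts of each other. The distal ends of these and of the 80 kb loop lay 71.9 to 161.9 kb from Spry2, which was itself the nearest protein-coding gene. The TAD at Spry2 was alike in the lists, at 530, 590 and 515 kb in ES cells, epithelium and fibers, and its high-coordinate border lay 8.2, 8.2 and 3.2 kb from the gene. A CTCF peak with a fold enrichment of 9.36, above 84.5% of the fiber list, lay 2225 bp upstream of the start in fibers, in the anchor of both fiber loops. Epithelium had no peak within 5 kb of the gene. Its nearest one (fold 6.43) lay farther upstream, at 105902860 to 105903163, in the 25 kb anchor of the 525 and 575 kb loops.

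**Figure D4:**
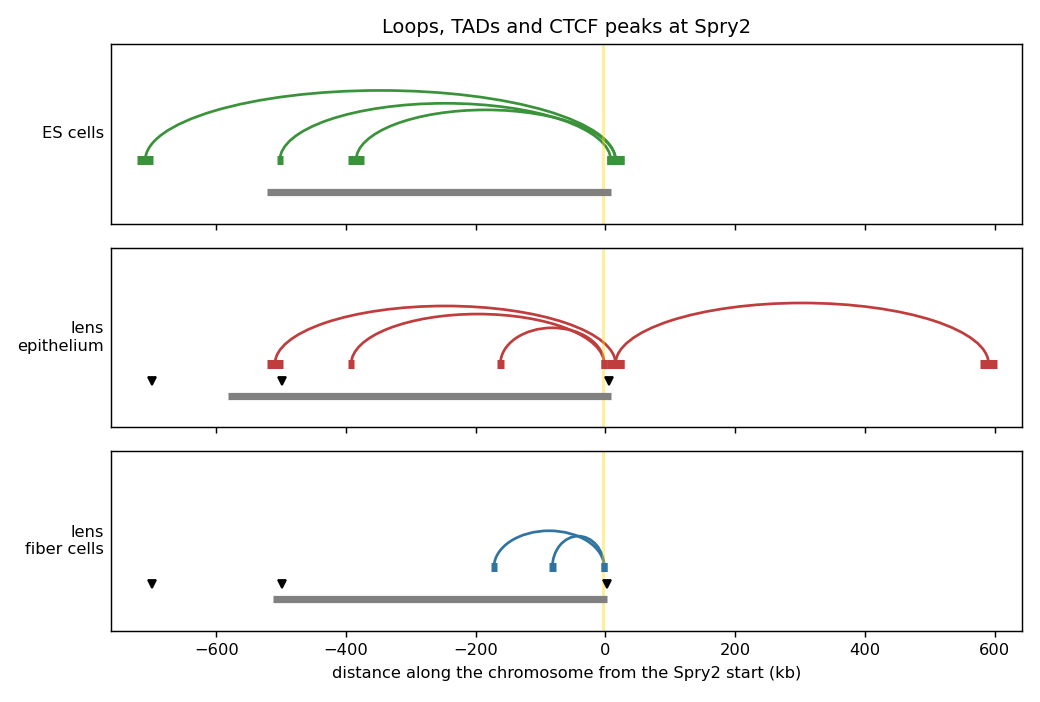
Loops (arcs with thick anchors), TADs (grey bars) and CTCF peaks (black triangles, lens lists, those at the gene or at an anchor of any of its loops) around Spry2 in the 3 cell types, by distance in kb along the chromosome from the annotated start, with the gene, which runs to the left, in yellow. Loops of 160 and 170 kb end at the start in epithelium and fibers, and all 3 ES cell loops end upstream of it. Arc height has no unit.

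Spry1 (chromosome 3, 37639947 to 37644599, plus strand) had 1 loop, in ES cells, which covered its start and reached the predicted gene Gm5148 over 90 kb, with a ratio of 2.05 (1.63 to 2.56). Neither lens list held it, and its ratio was above 5.22% of those of ES cell loops with anchors of the same width. The gene lay in a TAD of 625 kb in ES cells and in 3 nested TADs of 520, 615 and 750 kb in epithelium, and no fiber TAD touched it. Spry4 (chromosome 18, 38586247 to 38601347) had 1 loop, of 175 kb, in epithelium, with 148 contacts and a ratio of 1.94 (1.64 to 2.28). It reached Arhgap26, where the anchor held an epithelium CTCF peak (fold 6.05). The ratio of this loop was above 3.09% of those of epithelium loops with anchors of the same width. TADs of 250, 350 and 360 kb held Spry4 in ES cells, epithelium and fibers. The 3 Sprouty genes thus had 4, 5 and 2 loops in ES cells, epithelium and fibers, and most of these were at Spry2.

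Dusp6 (chromosome 10, 99263231 to 99267489, plus strand) had 1 loop, in epithelium. It spanned 300 kb, from a 25 kb anchor over the gene to a site 182.7 kb from its nearest gene, Csl, with 160 contacts and a ratio of 2.23 (1.90 to 2.61), and neither anchor held a CTCF peak. TADs of 460 kb in ES cells and 420 kb in epithelium held the gene. In fibers the TAD was 90 kb long and ended 3.2 kb before it, so that it was counted by the widening alone.

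Etv5 (chromosome 16, 22381313 to 22439570, minus strand) had loops to either side. In ES cells both ran upstream into Dgkg, the gene of a diacylglycerol kinase, over 105 kb from next to the start (ratio 3.56, 2.64 to 4.70) and over 180 kb from the far end of Etv5 (2.83, 2.28 to 3.46). Fibers had a counterpart of the former, of 100 kb, with a ratio of 2.25 (1.72 to 2.89), and epithelium had none. Both lens lists held a loop from the Etv5 start across the gene to a site 34.0 kb from Tra2b, a splicing factor gene, and ES cells did not. It measured 125 kb in epithelium, with 184 contacts and a ratio of 2.27 (1.96 to 2.63), and 130 kb in fibers, with 48 contacts and a ratio of 2.70 (1.99 to 3.58). Neither the contacts nor the ratios can be compared directly, since the anchors were 25 kb wide in epithelium and 10 kb in fibers. At its distal anchor a CTCF peak was common to both, with a fold enrichment of 7.57 in epithelium and 6.64 in fibers. No peak lay within 5 kb of Etv5 in either list. A TAD began 0.4 kb upstream of Etv5, next to its start, in ES cells (110 kb) and in epithelium (100 kb), and in fibers a TAD of 550 kb held the whole gene.

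Etv4 (chromosome 11, 101769747 to 101785310), the closest relative of Etv5 in the set, had no loop, no CTCF peak and no TAD over its body. A TAD of 190 kb in ES cells began 4.7 kb from it. All 3 lists had a loop of 95 to 100 kb that began 24691 bp from the gene, outside the limit, with ratios of 4.96 in ES cells, 5.24 in epithelium and 4.43 in fibers.

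The 5 kb limit decided several counts. Loops just inside it had anchors 127 bp from Frs2, 431 and 1313 bp from Etv5, 3182 bp from Spry2 and 3193 bp from Fgfr2. The nearest outside it were the fiber loop 5127 bp from Frs2 and an ES cell loop 10127 bp from Frs2. At Spry2, fiber loops of 530 and 610 kb began 23182 bp upstream of the gene. Without any widening 7 of the 14 ES cell loops were left, at 3 genes, Fgfr1, Fgfr3 and Spry1, and Fgfr2, Spry2 and Etv5 had none in ES cells. Epithelium then had 10 loops at 7 genes and fibers 10 loops at 5 genes. Shares over all genes were not computed without widening.

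**Figure D5:**
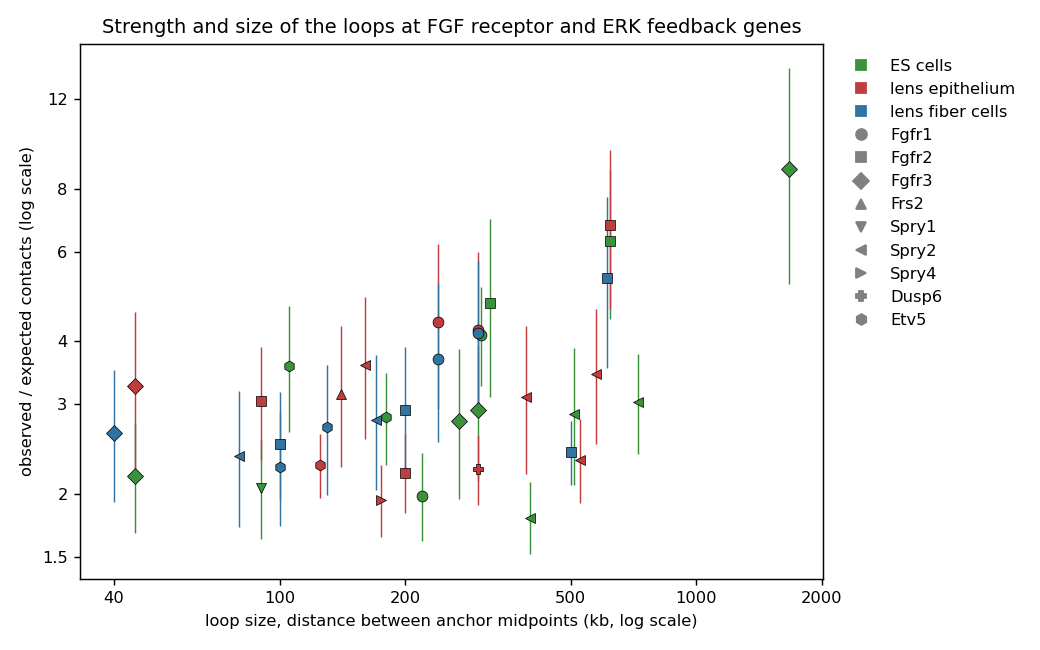
Ratio of observed to expected contacts (log scale) against loop size in kb (log scale) for the 39 loops at the 10 genes, with the cell type in color and the gene as the symbol, and bars for 95% Poisson intervals of the observed count. The 610 to 620 kb loops at Fgfr2 and the 1670 kb loop at Fgfr3 lie above the others of their size or smaller.

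As a set, the loops at these genes had ratios close to those of the lists they came from. The median ratio of observed to expected contacts was 2.90 in ES cells, 3.13 in epithelium and 2.70 in fibers, beside 3.06, 3.05 and 2.83 over all loops. Their median size was 302.5, 220 and 170 kb, beside 220, 250 and 270 kb, so that the order of the cell types was turned, on 11 to 14 loops per list. The plot of strength against size shows that many of the intervals overlapped.

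A TAD touched all 10 genes in ES cells, where 43.4% of all protein-coding genes were touched by one. In epithelium 8 of 10 genes were touched, beside 22.8%, and in fibers 7 of 10, beside 31.6%. Etv4 and Etv5 in ES cells, Etv5 in epithelium and Dusp6 in fibers were touched through the widening alone. Without it, 8 TADs touched the genes in ES cells, 9 in epithelium and 6 in fibers. Shares for genes of like length were not computed for TADs. The whole gene body was held by a TAD at 8, 6 and 4 genes, beside 25.4%, 13.4% and 18.1% of all protein-coding genes. Fgfr3, Spry2 and Spry4 were held whole in all 3 lists, and Fgfr2 lay in a domain of about its own length in both lens lists. Another 4 genes were held whole in 1 lens list and not in the other: Fgfr1, Spry1 and Dusp6 in epithelium, and Etv5 in fibers. At Fgfr1 this was a matter of the border, since the fiber TAD covered 98.7% of the gene. With TADs of at least 200 kb alone, 6 of the 10 ES cell TADs and 4 of the 7 fiber TADs remained.

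CTCF peaks were listed at 1 of the 10 genes in epithelium and at 4 in fibers. In epithelium the gene was Fgfr1, with a peak within 5 kb, where 31.2% of all protein-coding genes had one. In fibers the genes were Fgfr1, Fgfr2, Fgfr3 and Spry2, beside 45.9%, so that the count was near that of all genes. Among the 4 genes longer than 50 kb, 1 had a peak in epithelium and 2 in fibers, beside 57.1% and 72.4% of all genes of that length. Among the 3 between 10 and 50 kb the counts were 0 and 1, beside 30.4% and 46.7%, and among the 3 shorter than 10 kb they were 0 and 1, beside 15.7% and 28.0%. The lists held 1 and 6 such peaks, and 1 was shared. Of the 6 fiber peaks, 3 lay in the gene bodies as listed without widening, 2 of them at Fgfr1. The fiber list is longer, with 23868 peaks against 16433. Cut to the 16433 peaks of highest fold enrichment, it held 5 of the 6 peaks at the members, and its stronger 50% held 3. The share of all protein-coding genes with a peak in the cut list was not computed. Whether list length accounts for the counts was not tested.

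CTCF peaks of the same cell type were also counted at the anchors of the loops themselves. Of the 14 epithelium loops, 8 had a peak at 1 or both anchors, beside 60.5% of all epithelium loops, and 2 at both, beside 15.7%. These peaks lay at the anchor on the gene in 3 loops and at the distal anchor in 7, and Fgfr1 alone had an epithelium peak within 5 kb. Of the 11 fiber loops, 10 had a peak at 1 or both anchors, beside 83.4% of all fiber loops, and 1 at both, beside 39.1%. Here a peak lay at the gene in 6 loops, the loop within Fgfr2 included, and at a distal anchor outside the gene in 5. Shares by side were not computed over all loops of either list, so these counts describe the members only. The 1 fiber loop without a peak was the short loop at Fgfr3.

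The genes whose counts were most like those of Fgfr2 and Spry2, the members with most loops, were found by the distance in log2(count + 1) over the 3 loop lists and both peak lists. For Fgfr2 they were Gm4131, with the same 5 counts, and Eepd1 and Gucy1b2 at a distance of 0.32. For Spry2 they were Ephb3 and Slc16a6, both with the same 5 counts, and Mok at 0.32.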

How the data were processed

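Hi-C reads were aligned by the authors with BWA to mm10 (per the labels) and turned into Juicer contact maps, with 2 replicates per cell type merged. They called TADs with Arrowhead and loops with HiCCUPS (juicer_tools 2.13.06) at anchor widths of 5, 10 and 25 kb, and wide anchors meet more genes. Observed contacts are deposited as a raw count, expected contacts as a score from the donut-shaped surroundings, and the false discovery rate as a q-value. The other expected and q-value columns were not used. ChIP-seq peaks were called by the authors with MACS2, and the deposited lists give a fold enrichment, a score and the −log10 of p and q. Sequencing depth is not given in the lists.

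Starting from these lists, loops, TADs and peaks were assigned to genes of the GRCm38.p6 table, which has the coordinates of mm10, with Python 3.11.15, numpy 2.4.6, pandas 2.3.3, scipy 1.17.1 and matplotlib 3.10.9. An overlap was at least 1 bp, and loop size is the distance between anchor midpoints. Positions are counted from 1. The rules were tested on simulated data with 2000 loops, and 4 of 4 checks gave the known answer. Named genes are the members, genes in or nearest to a distal anchor, the 5 pathway genes with most loops (6 with a tie) and, for each member with most loops, its 3 most similar genes. Wdr11, Tacc1, Tacc2 and Tacc3 as receptor neighbors and the comparison of gene starts were chosen after the values were seen. The members and lists were chosen with earlier results of these data known. Alternatives changed the widening, anchor width, q-value, tolerance, TAD size and peak strength.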

Additional observations from a re-analysis of the deposited data

How the results depend on the processing

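No paired analysis was possible because the authors merged both replicates of each cell type before loops and TADs were called, and for the same reason no replicate could be left out. Of 101 recomputed counts, 78 stayed within 1.5 times the value given in the report and 23 did not. Without widening of the genes, 3 genes had 7 loops in ES cells and 3 fiber CTCF peaks were left. With 2 kb of widening, ES cells had 9 loops. Asking for the anchor midpoint in the widened gene left 8 loops in ES cells and 9 in epithelium. With anchors of 5 or 10 kb alone, epithelium had 8 loops at 5 genes, and 2 genes had a start in an anchor. With anchors widened by 5 kb, 5 genes had a start in an anchor in ES cells, beside 5 in epithelium and 4 in fibers. With the same widening, 2 fiber loops had CTCF at both anchors.

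Asking for both anchors to overlap left 2 ES cell loops with an epithelium counterpart and 1 with a fiber counterpart. It left 2 epithelium loops shared with ES cells and 5 with fibers, and 1 fiber loop shared with ES cells and 4 with epithelium. TADs of at least 200 kb numbered 6 in ES cells and 4 in fibers, and 4 fiber TADs held a whole gene. With 25 kb of widening there were 3 epithelium and 10 fiber CTCF peaks, and among the stronger 50% of peaks 3 fiber peaks were left. The members with a start in an anchor, and the demand that a counterpart lie at the same gene, were chosen after seeing the data. Contacts per loop limit the precision of single ratios, and how deeply the ChIP-seq was sequenced is unknown.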

Other observations

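The rest of the FGF and ERK pathway was described with a list of 56 other genes, among them FGF ligands, Fgfr4, adaptors, Ras and Raf kinases, Sprouty-related and Dusp genes. Of these, 28 had a loop in ES cells, 26 in epithelium and 24 in fibers, beside 37.3%, 36.2% and 34.5% of all protein-coding genes. A TAD touched 34, 15 and 22 of them (60.7%, 26.8% and 39.3%), and a CTCF peak was within 5 kb of 13 in epithelium and 26 in fibers (23.2% and 46.4%). Over all protein-coding genes the shares were 43.4%, 22.8% and 31.6% for TADs and 31.2% and 45.9% for peaks.

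The pathway genes with most loops over the 3 lists were Fgf13, Fgf12, Dusp4 and Nf1, followed by Fgf8 and Gab1 with 7 loops each. Fgf13, an intracellular FGF-related factor of 523.4 kb on the X chromosome, had 2 loops in ES cells, 4 in epithelium and 5 in fibers. Fgf12, of the same subfamily and 595.5 kb long, had 3 in each list. Fgf8, a ligand of early eye and brain patterning, is 6.5 kb long and had 2, 3 and 2. Dusp4, a nuclear ERK phosphatase gene of 12.3 kb, had 4 loops in ES cells, 3 in epithelium and 2 in fibers, whereas Dusp6 had 0, 1 and 0. Nf1, a Ras GTPase-activating protein gene of 242 kb, had 2, 3 and 3. Gab1, a docking protein gene of 116.1 kb, had 1, 3 and 3.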
